A study of Mus musculus with 6 samples.

Results

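The genes described are 10 transcription factors that set or maintain the identity of conventional dendritic cells (cDCs): Klf2, Klf4, Zbtb46, Zeb2, Id2, Nfil3, Bcl6, Runx3, Ikzf1 and Prdm1. They were taken by symbol from a table of 14535 genes, all 10 had a row, and all 10 passed the filter on low counts that left 11934 genes for testing. The table holds RNA-seq counts of type 2 cDCs (cDC2s), the CD4 T cell-priming class of cDCs, from the spleen of C57BL/6 mice. There were 3 libraries from IRF4-deficient mice, given as CD11c-Cre Irf4fl/fl, and 3 from WT mice. In the deficient mice Cre is expressed from the CD11c (Itgax) promoter and removes the floxed part of Irf4 in cells that use this promoter. No sample carries Cre or the floxed allele alone, so effects of these alleles cannot be told apart from loss of Irf4. The sources used here give no age, sex, sort gate or pooling of animals. The labels do not tie replicates to individual mice, and the p-values cover the variation among these libraries, part of which may be technical.

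Dendritic cell precursors choose between the cDC1, cDC2 and plasmacytoid lineages through transcription factors that repress each other. Work in mice places Nfil3, Zeb2 and Id2 in one such chain: NFIL3 represses Zeb2, ZEB2 represses Id2, and ID2 binds and disables E proteins such as TCF4, the factor of plasmacytoid cells. IRF8 together with BATF3 drives cDC1s, while IRF4, KLF4 and NOTCH2 signalling with RBPJ act in cDC2s.

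Of the 10 factors, 5 were called higher and 3 lower in IRF4-deficient cDC2s by edgeR at an adjusted p under 0.05. Over all tested genes 20.4% were called, 9.87% higher and 10.5% lower. Klf4, Klf2, Ikzf1, Zeb2 and Runx3 rose, and Zbtb46, Bcl6 and Id2 fell. Nfil3 and Prdm1 were not called. The libraries of the 2 genotypes did not overlap for the 8 called factors, against 35.6% of all tested genes without overlap. The changes were modest, between 1.30-fold and 2.09-fold upward and down to 52.2% of the WT level. The factors were chosen with results of these data known, so their share of calls is a description.

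**Figure D1:**
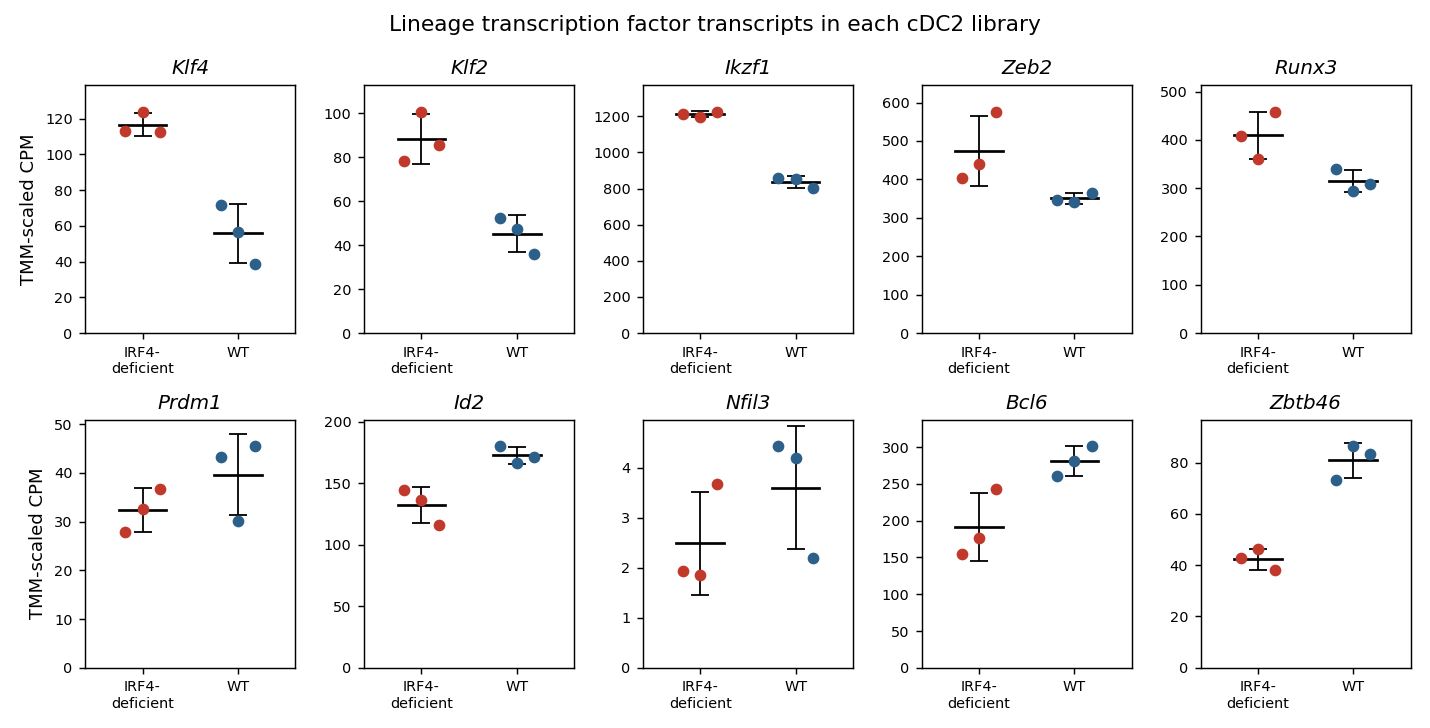
Level of each of the 10 transcription factors in library-size-normalised counts (CPM, TMM-scaled; y axis from 0). Points are libraries, with IRF4-deficient in red left of WT in blue, and lines with bars are means ± SD (n = 3 each); groups overlap only for Prdm1 and Nfil3.

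The libraries held 7949462 to 10609420 counts in IRF4-deficient and 7421605 to 11459920 in WT. Levels are given as CPM, counts divided by TMM-scaled library size. Irf4 itself stood at 90.8, 65.3 and 84.0 CPM in the IRF4-deficient libraries and at 291.8, 295.8 and 345.0 CPM in the WT libraries (replicates 1, 2 and 3 in this order, as in all such lists here). It was lower in the libraries labelled IRF4-deficient but not absent, at 25.8% of the level in WT. The source of the remaining reads was not tested. Markers of cDCs were abundant in every library, with sums over 6 genes including Flt3 and Cd74 of 19439 to 21155 CPM in IRF4-deficient cells and 22005 to 24395 CPM in WT cells. Most of these sums came from Cd74 and H2-Ab1. Cd74 had means of 12046 CPM in IRF4-deficient cells and 13992 CPM in WT cells, and H2-Ab1 of 5184 and 6157 CPM. Flt3 stood at 250 CPM in IRF4-deficient cells and 413 CPM in WT cells. Of the 6 cDC genes 5 were called lower and Itgax was called higher. Beside this and the marker counts below, 9.87% of all tested genes were called higher and 10.5% lower. Of 7 cDC2 markers 2 were called higher, 2 lower and 3 neither way, with sums of 3101 to 3466 CPM in IRF4-deficient cells and 2486 to 2618 CPM in WT cells. Itgam, the CD11b gene, rose 3.03-fold and Clec12a 1.87-fold, while Cd4 fell to 23.6% and Cd209a to 40.4% of the level in WT. Sirpa, another of the 7, stood at 981 CPM in IRF4-deficient cells and 909 CPM in WT cells and was not called. Of 9 monocyte markers 5 were called higher and 0 lower, with sums of 2152 to 2801 CPM in IRF4-deficient cells and 840.0 to 1204 CPM in WT cells. Of 11 red pulp macrophage markers 5 were called higher and 1 lower, with sums of 1912 to 3454 CPM in IRF4-deficient cells and 1319 to 1714 CPM in WT cells. Markers of cDC1s summed to 174.3 to 249.3 CPM in IRF4-deficient libraries and 122 to 138 CPM in WT libraries, with 4 of 6 called higher and 0 lower. T cell markers summed to 51.8 to 106 CPM in IRF4-deficient libraries and 36.8 to 41.8 CPM in WT libraries. Of these 6 markers 2 were called higher. Plasmacytoid cell markers summed to 87.7 to 98.7 CPM in IRF4-deficient libraries and 95.1 to 120 CPM in WT libraries. Of these 6 markers 2 were called higher and 1 lower. Markers of B and NK cells summed to at most 132 CPM in any library, with 1 of 6 B cell markers called higher and 1 lower. No gene of the cDC, monocyte, macrophage and cDC1 lists was at 0. In bulk RNA a change in the number of cells of one type and a change in RNA per cell cannot be told apart. The part of monocytes, macrophages, cDC1s, plasmacytoid cells, T cells or B cells in the values below was not tested.

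Klf4 and Klf2, the Kruppel-like zinc finger factors, had the largest increases. KLF4 is needed by a part of the cDC2 lineage in mice, and KLF2 controls lymphocyte trafficking and restrains activation of myeloid and endothelial cells. Klf4 stood at 113, 124 and 113 CPM in the IRF4-deficient libraries and at 71.8, 56.7 and 38.7 CPM in the WT libraries. Even the highest WT library stayed well under the lowest IRF4-deficient one, and the WT libraries spread more widely. The mean level was 117 ± 6.45 CPM in IRF4-deficient cells and 55.7 ± 16.6 CPM in WT cells (SD, n = 3 each), a log2 fold change of 1.06 (standard error, SE, 0.17; 95% interval 0.70 to 1.42; edgeR adjusted p = 0.000307).

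Klf2 stood at 78.3, 101 and 85.3 CPM in the IRF4-deficient libraries and at 52.4, 47.3 and 35.9 CPM in the WT libraries. Its log2 fold change was 0.96 (SE 0.14; 95% interval 0.66 to 1.26; edgeR adjusted p = 7.05e-05). As with Klf4, WT replicate 3 was the lowest library. The same library was low for Egr1, an immediate early gene, which had 833.8, 672.3 and 71.98 CPM in the WT libraries, and its part in the Klf values was not tested beyond leaving it out. Without WT replicate 3 the log2 fold changes were 0.86 for Klf4 (edgeR adjusted p = 0.0001965) and 0.82 for Klf2 (edgeR adjusted p = 0.0006779). The log2 ratio of Klf2 to Klf4 was -0.41 ± 0.12 in IRF4-deficient and -0.27 ± 0.17 in WT (SD, n = 3 each), and the libraries overlapped.

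Sequences at an annotated start of the factors that moved most are shown because Klf2 and Klf4 rose together while Zbtb46 fell. They are windows of 300 bases, 250 before and 50 after a RefSeq transcript start on GRCm38, read 5′ to 3′ on the gene's strand. Capitals mark CACCC or its reverse complement (the core letters bound by Kruppel-like factors) in Klf2 and Zbtb46, CTA and TAG spaced by 4 free bases (MEF2 letters, searched after the sequence had been seen) in Klf2, CACGTG (an E-box) in Klf4, and TGANTCA (AP-1 letters) in Zbtb46.
Klf2 (chr8:72318812-72319111, plus strand): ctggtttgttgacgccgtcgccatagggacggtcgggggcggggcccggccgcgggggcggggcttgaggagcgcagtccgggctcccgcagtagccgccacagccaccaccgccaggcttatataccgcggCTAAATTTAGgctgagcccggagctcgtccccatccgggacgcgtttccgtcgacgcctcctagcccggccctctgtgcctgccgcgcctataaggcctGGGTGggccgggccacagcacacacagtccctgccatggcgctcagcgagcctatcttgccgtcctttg
Klf4 (chr4:55532426-55532725, minus strand): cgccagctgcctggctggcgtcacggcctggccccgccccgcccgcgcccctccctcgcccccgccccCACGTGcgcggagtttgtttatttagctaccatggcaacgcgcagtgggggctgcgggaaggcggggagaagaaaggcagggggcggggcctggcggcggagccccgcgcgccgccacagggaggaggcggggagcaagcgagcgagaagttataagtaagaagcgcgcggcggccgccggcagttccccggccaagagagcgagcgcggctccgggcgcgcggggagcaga
Zbtb46 (chr2:181424339-181424638, minus strand): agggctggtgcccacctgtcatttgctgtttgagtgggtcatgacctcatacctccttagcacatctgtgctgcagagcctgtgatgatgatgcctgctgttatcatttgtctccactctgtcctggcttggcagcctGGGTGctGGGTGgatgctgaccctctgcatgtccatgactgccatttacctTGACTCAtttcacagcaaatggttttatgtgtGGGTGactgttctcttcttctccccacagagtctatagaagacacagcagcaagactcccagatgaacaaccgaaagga
The Zbtb46 window lies inside the gene as GENCODE annotates it (chromosome 2, 181387762 to 181459426), at a start downstream of the most upstream one. Just before this start the letters are a run rich in C and T that ends in CAG, as at the end of an intron. Whether the window is a promoter was not tested, so it is not a like match for the windows of Klf2 and Klf4. The Klf2 and Klf4 windows were rich in G and C, at 69.3% and 74.3%, while that of Zbtb46 had 50.7%, beside a median of 52.7% over all 32851 windows.

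All 10 factors had at least 1 RefSeq window, 16 in all, searched on both strands. GAAA repeated after 2 free bases, as in an interferon-stimulated response element, was in none of the 16 windows, beside 3.44% of all windows. GGAA followed after 2 free bases by GAAA, which joins an ETS and an IRF core as bound by PU.1 with IRF4, was in 1 window, of Bcl6, beside 2.72% of all windows. TGANTCA was in a window of Prdm1, Zbtb46 and Zeb2 (7.81% of all windows), and CACGTG in one of Bcl6 and Klf4 (7.15%). CACCC was in 10 of the 16 windows, belonging to 7 of the 10 factors, beside 57.5% of all windows. The MEF2 letters were in the Klf2 window alone among the factors, at position -118 from the start, and in 3.69% of all windows. A match shows letters and no binding, and the windows leave out distant enhancers.

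Zbtb46, a BTB zinc finger factor that marks cDCs and their committed precursors apart from monocytes and plasmacytoid cells, had the largest decrease. It stood at 42.7, 46.2 and 38.0 CPM in the IRF4-deficient libraries and at 73.3, 86.4 and 83.2 CPM in the WT libraries. All IRF4-deficient libraries lay far below all WT libraries, with a narrow spread in each group. The mean was 42.3 ± 4.14 CPM in IRF4-deficient cells and 80.9 ± 6.8 CPM in WT cells (SD, n = 3 each), a log2 fold change of -0.94 (SE 0.13; 95% interval -1.21 to -0.67; edgeR adjusted p = 2.24e-05). Leaving out any library gave log2 fold changes of -1.005 to -0.87.

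**Figure D2:**
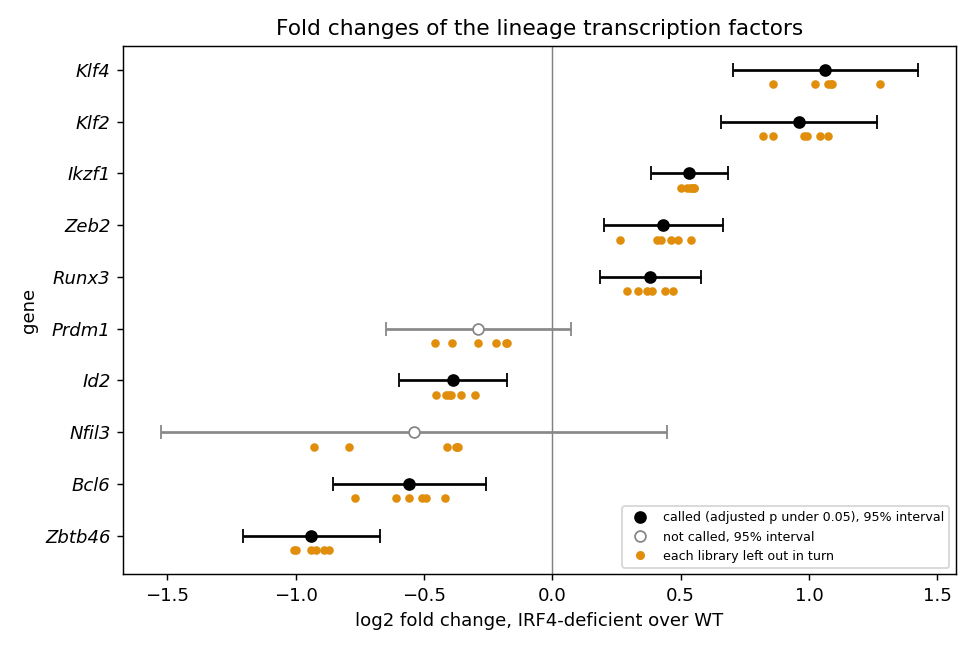
Log2 fold change of each factor, IRF4-deficient over WT (x axis), with its 95% interval; filled points were called and open points were not, and orange points leave out 1 library each. Klf4 at 1.06 and Zbtb46 at -0.94 mark the ends, and only Nfil3 and Prdm1 have intervals that include 0.

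Among the factors of the Nfil3, Zeb2 and Id2 chain, Zeb2 rose and Id2 fell. Zeb2 (GRCm38 chromosome 2, 44983632 to 45117395, minus strand), a zinc finger E-box-binding repressor needed for plasmacytoid cells and for cDC2s and monocytes, stood at 403, 439 and 577 CPM in the IRF4-deficient libraries and at 346, 339.8 and 365 CPM in the WT libraries. IRF4-deficient replicate 3 was well above the other libraries, while replicate 1 exceeded the highest WT library by little. The log2 fold change was 0.43 (SE 0.11; edgeR adjusted p = 0.00909), and 0.26 without IRF4-deficient replicate 3 (edgeR adjusted p = 0.02823). The summed red pulp macrophage markers had the same order as Zeb2 among the IRF4-deficient libraries but not among the WT libraries, with 1912, 2689 and 3454 CPM in the IRF4-deficient libraries and 1463, 1714 and 1319 CPM in the WT libraries. The summed monocyte markers were at 2152, 2661 and 2801 CPM in the IRF4-deficient libraries and 1204, 1108 and 840.0 CPM in the WT libraries. They had that order as well among the IRF4-deficient libraries but not among the WT libraries. Lyz2, the monocyte marker with the highest mean, did not have it in the IRF4-deficient libraries, at 879, 980 and 833 CPM. Without a stated strand setting, reads of the antisense gene Zeb2os, whose exons overlap those of Zeb2 over 653 bases, could count toward Zeb2.

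Id2 (GRCm38 chromosome 12, 25093799 to 25097140, minus strand) encodes a helix-loop-helix protein without a DNA-binding region, needed for cDC1s. It stood at 144, 136 and 116 CPM in the IRF4-deficient libraries and at 180.1, 167 and 171 CPM in the WT libraries. The IRF4-deficient libraries were all lower, and replicate 3, the highest for Zeb2, was the lowest for Id2. The log2 fold change was -0.39 (SE 0.10; 95% interval -0.60 to -0.18; edgeR adjusted p = 0.00931), or 76.5% of the level in WT. The log2 ratio of Zeb2 to Id2 was 1.48, 1.69 and 2.31 in the IRF4-deficient libraries, against 0.94, 1.03 and 1.09 in the WT libraries. Every IRF4-deficient library had the higher ratio, and the means differed by 0.81. This follows from the separate values of Zeb2 and Id2 and is not a further result.

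Tcf4, the E protein gene that ID2 opposes, stood at 127 ± 8.03 CPM in IRF4-deficient cells and 126 ± 13.3 CPM in WT cells (SD, n = 3 each) and was not called (edgeR adjusted p = 0.98). The log2 ratio of Id2 to Tcf4 was 0.06 ± 0.25 in IRF4-deficient and 0.46 ± 0.11 in WT, without overlap of the libraries. It too restates the values of the genes. Nfil3 (GRCm38 chromosome 13, 52967209 to 52981073, minus strand), a basic leucine zipper repressor needed for cDC1s, was low, with 21, 15 and 33 counts in the IRF4-deficient libraries and 32, 46 and 16 counts in the WT libraries. Its levels of 1.85 to 3.67 CPM in IRF4-deficient cells and 2.19 to 4.43 CPM in WT cells overlapped. The 95% interval of its log2 fold change, -1.52 to 0.45, is too wide at this depth to tell a decrease from an increase (edgeR adjusted p = 0.478).

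**Figure D3:**
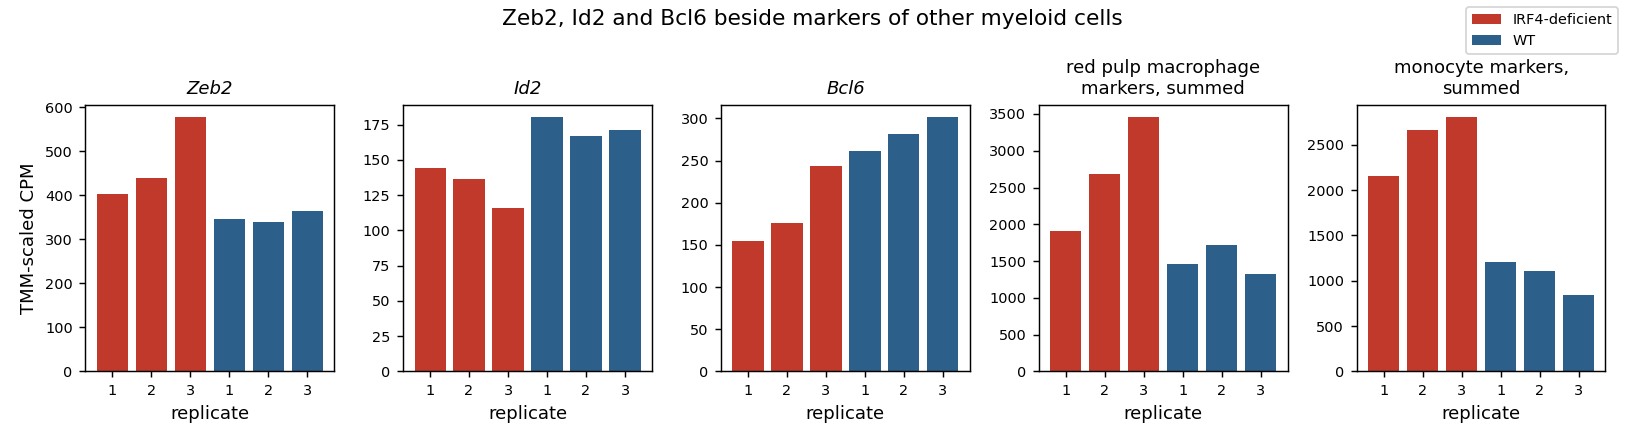
CPM of Zeb2, Id2 and Bcl6 in each library beside the summed CPM of 11 red pulp macrophage markers and 9 monocyte markers (y axes from 0; IRF4-deficient replicates 1 to 3 in red, then WT replicates 1 to 3 in blue). IRF4-deficient replicate 3 has the highest Zeb2, 577 CPM, and the highest marker sums, 3454 and 2801 CPM, and the lowest Id2, 116 CPM.

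Bcl6 and Prdm1 encode repressors that oppose each other in B cells. Bcl6 (GRCm38 chromosome 16, 23965052 to 23988852, minus strand), a BTB zinc finger factor of germinal centre B cells that also supports cDC development in mice, stood at 154, 176 and 244 CPM in the IRF4-deficient libraries and at 261, 281 and 301 CPM in the WT libraries. IRF4-deficient replicate 3 lay just under the lowest WT library, and the other replicates far below. The mean was 191 ± 46.5 CPM in IRF4-deficient cells and 281 ± 20.2 CPM in WT cells (SD, n = 3 each), a log2 fold change of -0.56 (SE 0.14; 95% interval -0.85 to -0.26; edgeR adjusted p = 0.0103). The call was lost without IRF4-deficient replicate 2 (log2 fold change -0.49, edgeR adjusted p = 0.07021), while without replicate 3 the value was -0.77 (edgeR adjusted p = 1.09e-05).

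Prdm1 (GRCm38 chromosome 10, 44437177 to 44528501, minus strand) encodes BLIMP-1, the plasma cell factor that also restrains cytokine output of dendritic cells. It stood at 27.8, 32.6 and 36.7 CPM in the IRF4-deficient libraries and at 43.3, 30.2 and 45.5 CPM in the WT libraries. The groups overlapped through WT replicate 2, and Prdm1 was not called (log2 fold change -0.29, SE 0.17, 95% interval -0.65 to 0.07; edgeR adjusted p = 0.276). Leaving out any library gave log2 fold changes of -0.458 without WT replicate 2 to -0.178 without WT replicate 3, none of them called (edgeR adjusted p 0.09518 to 0.6228). The log2 ratio of Bcl6 to Prdm1, 2.54 ± 0.16 in IRF4-deficient and 2.85 ± 0.33 in WT (SD, n = 3 each), overlapped between the groups.

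Ikzf1 and Runx3, both abundant in these cells, rose. Ikzf1 (GRCm38 chromosome 11, 11685003 to 11772926, plus strand) encodes Ikaros, a zinc finger regulator of chromatin required in lymphoid cells and plasmacytoid dendritic cells. It stood at 1214, 1195 and 1226 CPM in the IRF4-deficient libraries and at 858, 850.4 and 800.3 CPM in the WT libraries. The libraries of each group were nearly alike, and the increase of 1.45-fold had the narrowest interval of the 10 factors (log2 fold change 0.53, SE 0.07, 95% interval 0.39 to 0.68; edgeR adjusted p = 1.82e-05). Without any one library the log2 fold change was 0.50 to 0.55.

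Runx3 (GRCm38 chromosome 4, 135120652 to 135177990, plus strand), a Runt-domain factor that silences Cd4 in cytotoxic T cells and acts in Langerhans cells, stood at 408, 361 and 459 CPM in the IRF4-deficient libraries and at 339, 294 and 309 CPM in the WT libraries. The lowest IRF4-deficient library was only 1.06 times the highest WT library. The log2 fold change was 0.38 (SE 0.09; 95% interval 0.18 to 0.58; edgeR adjusted p = 0.00646), and without WT replicate 2 it was 0.33 with an adjusted p of 0.04999, at the threshold.

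Per kilobase of exon, Ikzf1 was the most abundant of the 10 factors in both genotypes, at 209.8 ± 2.75 CPM per kb in IRF4-deficient and 145 ± 5.45 CPM per kb in WT (SD, n = 3 each). Runx3 came next in IRF4-deficient cells at 81.8 ± 9.81 CPM per kb, ahead of Id2 at 54.2 ± 5.96 CPM per kb. In WT cells Id2 was ahead, at 70.8 ± 2.77 CPM per kb against 62.8 ± 4.58 CPM per kb for Runx3. The libraries did not overlap between these neighbours in either genotype. Klf2, at 47.7 ± 6.21 CPM per kb in IRF4-deficient cells, overlapped with Id2 there, and at 24.5 ± 4.57 CPM per kb in WT it overlapped with Klf4, at 18.3 ± 5.44 CPM per kb. Nfil3 was lowest in both genotypes at 1.23 ± 0.51 CPM per kb in IRF4-deficient and 1.78 ± 0.61 CPM per kb in WT libraries. Next came Zbtb46, at 4.97 CPM per kb in IRF4-deficient and 9.51 in WT, and Prdm1, at 5.81 and 7.11 CPM per kb. Zbtb46 and Prdm1 overlapped each other in IRF4-deficient cells only, and neither overlapped with Nfil3. With the longest transcript in place of all exons, 4 of the 10 factors kept their place in the order in IRF4-deficient cells and 7 in WT, so the places in the middle depend on which exons are counted.

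The wider set of dendritic cell transcription factors moved in both directions. Of 35 tested genes 9 were called higher and 7 lower (45.7% called, beside 20.4% of all tested genes), with a median log2 fold change of 0.16 beside 0.0025 over all tested genes. The strongest increases by p were in Irf8, the cDC1 and plasmacytoid lineage factor, at 127 ± 17.2 CPM in IRF4-deficient cells and 47.7 ± 7.44 CPM in WT cells, and in Rara, a retinoic acid receptor gene, at 148 ± 0.035 CPM in IRF4-deficient cells and 64.3 ± 9.95 CPM in WT cells (SD, n = 3 each). Nfkb1, the p105 and p50 subunit gene, and Tbx21, which encodes T-bet, also rose, by 0.58 (SE 0.08) and 1.40 (SE 0.19) on the log2 scale. Etv3, an ETS-family repressor, fell to 87.7 ± 7.65 CPM in IRF4-deficient cells, against 378 ± 61.3 CPM in WT cells. Batf3, needed for cDC1s, fell (log2 fold change -1.30, SE 0.13), as did Rel (-0.86, SE 0.09) and the orphan nuclear receptor gene Nr4a3 (-3.18, SE 0.31). Rbpj, the DNA-binding partner of Notch, also fell, to 43.6 ± 1.40 CPM in IRF4-deficient cells, against 78.6 ± 10.4 CPM in WT cells.

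**Figure D4:**
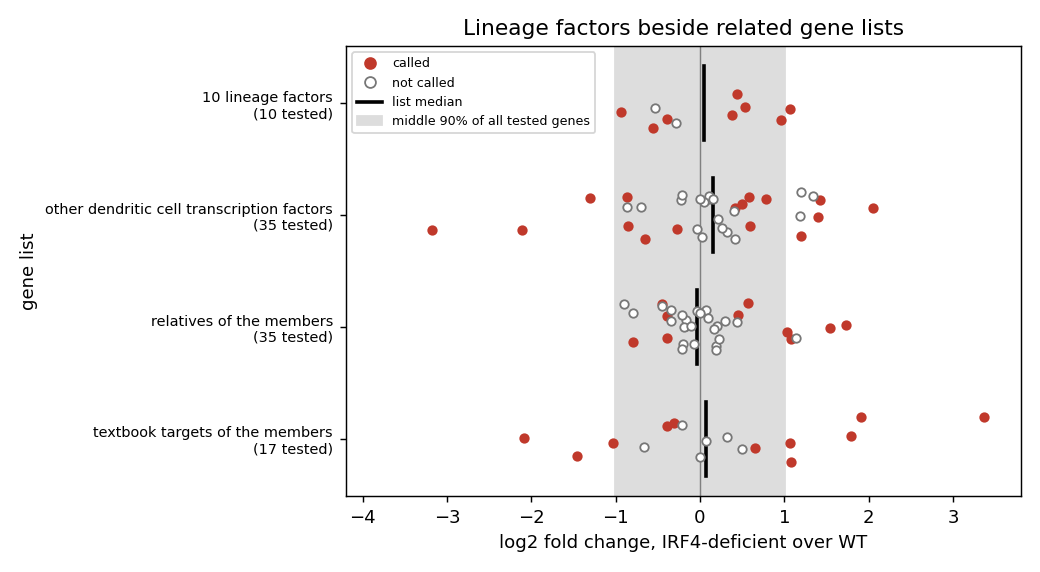
Log2 fold change, IRF4-deficient over WT (x axis), of each tested gene in the 10 factors and in 3 lists of related genes; red points were called, open points were not, black bars are medians, and the grey band runs from the 5th to the 95th percentile of all tested genes, -1.01 to 1.01. The 10 factors stay mostly within the band, and the called members of every list lie on both sides of 0.

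Family members of the 10 factors did not all follow them. Of 35 tested relatives 6 were called higher and 4 lower (28.6% called, beside 20.4% of all tested genes), with a median log2 fold change of -0.04. Within the Kruppel-like family, Klf10 (1.08, SE 0.15), Klf11 (1.54, SE 0.30) and Klf3 (0.45, SE 0.10) rose on the log2 scale, as Klf2 and Klf4 had. Klf6, an immediate early member, fell to 252 ± 22.5 CPM in IRF4-deficient cells, against 438 ± 54.7 CPM in WT cells, and Klf13 was not called, at 149.7 ± 11.5 CPM in IRF4-deficient cells and 143 ± 2.68 CPM in WT cells. Runx2 rose more than Runx3, to 367 ± 46.7 CPM in IRF4-deficient cells, against 180.2 ± 13.9 CPM in WT cells, a log2 fold change of 1.03 (SE 0.10). Runx1 was not called, at 205 ± 41.4 CPM in IRF4-deficient cells and 179 ± 0.74 CPM in WT cells, and its libraries overlapped (edgeR adjusted p = 0.297). Cbfb, the shared partner subunit of the Runx proteins, was not called, at 238 CPM in IRF4-deficient cells and 275 CPM in WT cells. Zeb1 fell (log2 fold change -0.45, SE 0.11), opposite in sign to Zeb2, and so did Prdm2 (-0.38, SE 0.09). Zbtb7b, the BTB zinc finger factor of helper T cells, had -0.39 (SE 0.12) and an edgeR adjusted p of 0.0302, which was 0.05466 to 0.09845 in 5 of the 6 fits that left out a library, all but that without IRF4-deficient replicate 1.

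Genes that textbooks give as targets of the 10 factors in some cell type were also mixed, with 6 of 17 tested called higher and 5 lower. This was 64.7% called, beside 20.4% of all tested genes, with a median log2 fold change of 0.07. Of the genes that KLF2 activates in lymphocytes, Itgb7, an integrin chain gene, rose 1.57-fold. S1pr1, another such gene, stood at 5.10 ± 1.85 CPM in IRF4-deficient cells and 8.10 ± 1.08 CPM in WT cells and was not called. Csf3r, a gene that ZBTB46 represses, rose to 39.0 ± 7.31 CPM in IRF4-deficient cells, against 18.5 ± 7.09 CPM in WT cells. Cdh1, the E-cadherin gene, is a classical target of ZEB2 repression in epithelial cells and rose 10.3-fold, with 22.5, 20.02 and 21.4 CPM in the IRF4-deficient libraries, against 2.07, 1.82 and 2.32 CPM in the WT libraries. Cd4, which RUNX3 silences in T cells, fell to 131 ± 21.9 CPM in IRF4-deficient cells, against 555 ± 20.6 CPM in WT cells. Ccnd2 and Cdkn1a, which BCL6 represses in B cells, were both lower, at log2 fold changes of -1.46 (SE 0.12) and -1.03 (SE 0.19). Bcl2 and Cd69, which BCL6 also represses in B cells, were both higher, at log2 fold changes of 1.07 (SE 0.27; edgeR adjusted p = 0.0176) and 1.79 (SE 0.45; edgeR adjusted p = 0.00745). The Bcl2 call was lost without IRF4-deficient replicate 2 (edgeR adjusted p = 0.06355) and without WT replicate 2 (edgeR adjusted p = 0.09269). Ciita, which BLIMP-1 represses in plasma cells, was lower too (-0.31, SE 0.07; edgeR adjusted p = 0.00493). Pax5 (0.50, SE 0.41), Spib (0.33, SE 0.12) and Myc (-0.21, SE 0.13), on the same list of targets, were not called.

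Over all tested genes, those with the profile closest to Klf4 across the 6 libraries were Slc9a2, a sodium-proton exchanger gene, H1f0, a linker histone gene, and Arid5a, an RNA-binding protein gene. Their root mean square differences from Klf4, on log2 CPM centred on each gene's mean, were 0.127, 0.128 and 0.13. Those closest to Zbtb46 were Gbp2, a guanylate-binding protein gene, Rassf4, and Tnfaip3, which encodes the NF-kB inhibitor A20, with differences of 0.0432, 0.0439 and 0.0522. These genes were selected for likeness, and their own changes are not counted as results.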

How the data were processed

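The authors deposited raw counts per gene symbol for 6 libraries, not normalized, as whole numbers with differing totals. STAR, HTSeq and DESeq2, and the build mm10, are named in the submitters' processing notes; no source used here states the annotation, strand setting or row filter. WT columns were matched to sample titles through the labels' source names, and no column was left out (0 unused). The table had 0 duplicated or unnamed rows. Libraries of the same genotype differed by more than sampling noise, at 7.66 to 15.9 for chi-square over its degrees of freedom (genes with 20 or more counts in the pair), and each counted as 1 replicate.

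Genes were filtered with filterByExpr, scaled by TMM and tested across all 11934 genes with edgeR 4.0.16 (glmQLFit with robust shrinkage, glmQLFTest; R 4.3.3), with Benjamini-Hochberg adjustment. A gene was called at an adjusted p under 0.05. Fold changes carry a prior count of 0.125, and the SE comes from the F statistic. The common biological coefficient of variation was 0.156. The steps were tested on simulated data that gave every gene the same dispersion, unlike these libraries, and no result here rests on that test. Alternatives used DESeq2 1.42.0, limma-voom (limma 3.58.1), other scalings and filters, and each library left out.

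Exon lengths, gene positions and overlaps come from GENCODE M21 (GRCm38), and promoter windows from RefSeq (GRCm38). Named are all 10 factors, Irf4, and the 4 called genes with the smallest p in each direction of the 3 lists. Some list genes with a mean of at least 50 CPM, and the 3 genes most like the most raised and most lowered factor, are named too. One named gene is not reported here. S1pr1, Egr1, Klf15, Id3, Bcl2, Cd69, Pax5 and the cell type markers fall outside this rule and were named after their values were seen. The members and lists were chosen with earlier results of these data known, and 5 genes are in more than 1 list. Likeness used a pseudocount of 0.5 CPM.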

Additional observations from a re-analysis of the deposited data

How the results depend on the processing

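The 10 factors kept their direction in each of the 15 alternative fits in which they were tested (Nfil3 did not pass the filter of 5 CPM in 3 libraries), and kept their side of the threshold except Bcl6 without IRF4-deficient replicate 2. The factors called higher numbered 5 in every fit and those called lower 2 to 3. The genes called over the whole table numbered 1779 to 2513, against 2429. The labels do not say whether equal replicate numbers share a day or litter. Deviations from the group means correlated at -0.00479, 0.0512 and -0.0106 for libraries with the same number in the sample titles. Other pairs of an IRF4-deficient and a WT library gave -0.0401 to 0.0409. With so few libraries such values cannot exclude pairing, and the WT columns are numbered otherwise than the titles. With the replicate number as a block, 2267 genes were called, the factors again at 5 higher and 3 lower, and Bcl2 was no longer called (log2 fold change 1.05, adjusted p = 0.05198). Tcf4, with a log2 fold change near 0 (0.0052), changed sign to -0.00028 with upper-quartile factors and ranged from -0.082 to 0.063 over the fits that left out a library; the cause was not tested. With the longest transcript in place of all exons, 4 factors kept their place by level per length in IRF4-deficient cells. At 15 to 46 counts, depth limits what can be said of Nfil3.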

Other observations

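Some relatives of the factors were too low for the filter. Klf15 had 8, 9 and 22 counts in IRF4-deficient replicates 1 to 3, and 1, 0 and 2 counts in WT replicates 1 to 3, and was not tested. Id3, the paralog of Id2, had 9 to 12 counts in IRF4-deficient and 4 to 12 counts in WT libraries.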
